A study of Mus musculus with 6 samples.

Results

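The genes described here encode the proteins of the cytosolic ribosome in mouse proximal tubular epithelial cells (PTECs) treated with palmitic acid (PA). A gene was included when its symbol began with Rpl or Rps followed by a digit, or was Rplp0, Rplp1, Rplp2 or Rpsa. The S6 kinase genes, Rps19bp1 and symbols marked as pseudogenes, 17 names in all, were left out. This gave 87 of the 24421 genes in the table, 53 of the large and 34 of the small subunit, of which 81 (49 large, 32 small) were expressed enough to be tested.

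Immortalized wild-type mouse PTEC lines were exposed for 6 hours to PA-bound bovine serum albumin (the PA group, 3 libraries) or to BSA alone (the BSA group, 3 libraries), and polyadenylated RNA was sequenced with a stranded kit. The study asked which pathways respond to lipid overload in these cells, and among its protein readouts was phosphorylated ribosomal protein S6. It reported that PA left the phosphorylation of this protein unaffected. Whether the 3 libraries of a group were separate cultures is not stated in the labels or the methods, and the p-values may thus cover technical spread between samples alone. Expression is given as RPKM (read number scaled to gene length and library size), a share of each library, so fewer ribosomal protein transcripts and more of all other transcripts cannot be told apart. In such bulk samples, fewer cells of a type and less RNA per cell cannot be told apart either.

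The authors' denominators were 20189052, 17850330 and 19443828 reads for PA replicates 1, 2 and 3 and 20024104, 21568228 and 17679817 reads for BSA replicates 1, 2 and 3. Of 4 epithelial markers, 2 had a mean over 1 RPKM (Krt8 and Krt18), and their list summed to 557.71 to 590.66 RPKM in PA libraries and 684.59 to 732.56 RPKM in BSA libraries, both genes being lower in PA. Cdh1 and Epcam were below 0.5 RPKM in every library. Among renal transcription factor genes, Pax8 was present and Hnf4a was below 0.5 RPKM, and of 8 proximal tubule genes 2 had a mean over 1 RPKM, with sums of 13.34 to 14.93 RPKM in PA and 14.51 to 16.97 RPKM in BSA libraries. Slc34a1, the main phosphate transporter of the proximal tubule, was at 0 in all libraries except BSA replicate 3. Markers of other cell types summed to 3.06 to 3.73 RPKM in PA and 3.26 to 3.86 RPKM in BSA libraries, with Umod at 0 throughout. The part of these marker levels in the results on ribosomal protein genes was not tested.

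Ribosomal proteins are made in near-equal numbers and assemble with ribosomal RNA into the small subunit, which reads the mRNA, and the large subunit, which joins amino acids. Their mRNAs are among the most abundant in growing cells and typically begin with a C followed by a stretch of pyrimidines, the 5′ terminal oligopyrimidine (TOP) motif, through which mTORC1 and the RNA-binding protein LARP1 control their translation and stability. Transcription of the same genes is raised by MYC, and ribosome production is costly enough that cells adjust it to nutrients and stress.

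The annotated start regions of 66 of the 87 genes were found in the RefSeq promoter table (GRCm38.p6). A pyrimidine run of at least 5 bases (C or T, read on the gene's own strand) that began with a C exactly at an annotated start was present in 14 of them (21.2%), against 799 of 26959 other genes (3.0%). Such a run lay anywhere in the 30 bases around a start in 44 ribosomal protein genes (66.7%) and in 10654 other genes (39.5%). The sequences below hold 10 bases before the annotated start and 20 from it, 5′ to 3′ on the strand of the gene. They are shown because these genes recur in the results, and capitals mark a run of pyrimidines that begins with a C at the start base. The first 4 genes have a run of at least 5 bases there and the last 4 do not.
Rps18: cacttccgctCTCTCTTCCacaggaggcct
Rps6: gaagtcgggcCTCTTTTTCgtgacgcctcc
Rpl38: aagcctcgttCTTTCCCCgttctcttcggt
Rplp2: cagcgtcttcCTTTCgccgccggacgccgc
Rps7: cggtttccacCCacctacttccgctgtccc
Rps15: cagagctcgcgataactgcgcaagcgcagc
Rps23: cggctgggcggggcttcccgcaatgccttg
Rpl36a: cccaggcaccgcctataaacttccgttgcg
These windows lie at chr17:33955646-33955675 (minus strand) for Rps18, chr4:86857348-86857377 (minus) for Rps6, chr11:114668570-114668599 (plus) for Rpl38, chr7:141447641-141447670 (plus) for Rplp2, chr12:28635934-28635963 (minus) for Rps7, chr10:80292421-80292450 (plus) for Rps15, chr13:90923112-90923141 (plus) for Rps23 and chrX:134585644-134585673 (plus) for Rpl36a. An annotated start is not always the one used in a cell, and the annotations differ: Rps15 begins at position 80292431 of chromosome 10 in RefSeq and at 80292453 in GENCODE vM21. A missing run therefore says only that these letters are not in this window.

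Ribosomal protein transcripts made up a large part of the transcriptome in both groups. They took 18.36%, 18.76% and 18.98% of the summed RPKM in PA replicates 1, 2 and 3, against 19.40%, 19.64% and 19.79% in BSA replicates 1, 2 and 3. The share was lower in every PA library than in every BSA library, averaging 18.70% ± 0.31 in PA and 19.61% ± 0.20 in BSA (SD, n = 3 each). The large subunit accounted for 10.82% ± 0.16 in PA and 11.35% ± 0.16 in BSA, and the small subunit for 7.88% ± 0.15 in PA and 8.26% ± 0.05 in BSA. In reads rather than RPKM, where short genes weigh less, the share was 6.41% ± 0.14 in PA and 6.82% ± 0.07 in BSA, as a lower bound because the gene lengths recovered from the file may be too short by a whole factor for a few genes.

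Levels spread over a wide range around this total. Of the 87 genes, 35 had a mean of at least 1000 RPKM, 34 lay between 500 and 1000, 7 between 100 and 500, 5 between 0.5 and 100, and 6 below 0.5. Members held 9 of the 20 highest places in the table and 62 of the highest 100. The most abundant was Rps2, a small subunit protein near the mRNA entry channel, with 4407 ± 79.8 RPKM in PA and 4549 ± 23.1 RPKM in BSA. It was followed by Rpl41, the shortest of the ribosomal proteins, with 3560 ± 56.5 RPKM in PA and 3852 ± 50.9 RPKM in BSA, and by Rpl8, a core protein close to the catalytic site, with 3039 ± 88.3 RPKM in PA and 3165 ± 38.9 RPKM in BSA.

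Low values were found for some genes whose proteins belong to every ribosome. Rpl30 had 4.32 ± 0.37 RPKM in PA and 4.35 ± 0.30 RPKM in BSA, Rps27 5.51 ± 0.59 in PA and 5.32 ± 1.03 in BSA, and Rpl34 15.2 ± 0.30 in PA and 16.1 ± 0.37 in BSA. Rpl26 was listed at 0 in all 6 libraries. Many ribosomal protein genes have near-identical pseudogene copies. Of 85 members with protein-coding transcripts in GENCODE, 82 shared at least one 50-base window of sequence with another gene and 29 shared more than 50% of their windows. The other gene could be of any kind, including a gene at the same locus. For example, Rpl7l1 shared windows with 520 genes, of which 6 were pseudogenes. For the low genes the shared part was 72.8% in Rpl30, 46.2% in Rps27, 44.0% in Rpl26 and lowest in Rpl34. But it was 95.1% in Rpl35 (named after its values were seen), where 7 of the 12 genes sharing windows were pseudogenes. Rpl35 had 1363 ± 35.4 RPKM in PA and 1430 ± 39.1 RPKM in BSA. Levels of genes with shared sequence are uncertain wherever the authors' counting could split reads, and the part of shared sequence in the low values was not tested.

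**Figure D1:**
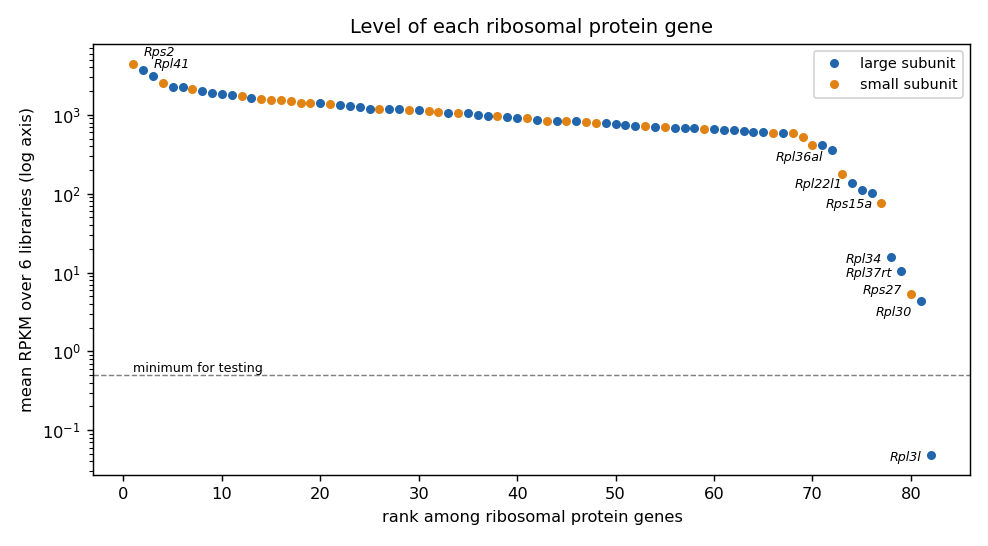
Mean RPKM over the 6 libraries (log axis) of the ribosomal protein genes with any reads, ranked from highest to lowest, with large subunit genes in blue and small subunit genes in orange. The 69 highest genes lie at 500 RPKM or above, whereas Rps15a, Rpl34, Rpl37rt, Rps27 and Rpl30 fall below 100, and Rpl3l lies under the dashed line at 0.5 RPKM, the minimum for testing.

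The other genes below the minimum were paralogs or copies, some of them known mainly from other tissues. Rpl3l, a muscle form of Rpl3, was at 0, 0 and 0.097 RPKM in PA replicates 1, 2 and 3 and at 0.063, 0.058 and 0.071 RPKM in BSA replicates 1, 2 and 3. Rpl10l and Rpl39l, which are testis forms of Rpl10 and Rpl39, together with Rps4l and Rps27rt were listed at 0 in all 6 libraries. Rps4l is annotated as a processed pseudogene in GENCODE. Rps27rt shared 91.1% of its windows with other genes, Rps27 among them, so its value of 0 is uncertain. The widely expressed forms were abundant, with 1115 ± 29.5 RPKM in PA and 1186 ± 22.6 RPKM in BSA for Rpl10, and 1155 ± 41.8 RPKM in PA and 1245 ± 59.3 RPKM in BSA for Rps4x.

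Across the set, transcripts were slightly lower after PA, except where libraries were scaled on these genes themselves. The median log2 fold change (PA over BSA, on the scale of log2(RPKM + 0.1)) of the 81 tested genes was −0.09, a fall of 6.2%, against −0.04 over all 11671 genes tested. The median of the large subunit genes was −0.092 and that of the small subunit genes −0.093. The fold change was below 0 in 80 of 81 members, all except Rps27, and in 59.1% of all genes tested. Rps27 had 54 to 68 recovered reads a library and a standard error of 0.137. The fold change was below 0 in 52 members after quantile normalization, in 63 with the trend over gene length removed and in 37 when libraries were scaled on these genes. The medians shifted as well: for all members together the median was −0.034 with the length trend removed, −0.019 after quantile normalization, above that of all genes (−0.029), and by construction near 0 (0.006) when libraries were scaled on the ribosomal protein genes themselves.

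The fold changes of single members were spread over a narrower range than those of all genes. The log2 fold changes of members ranged only from −0.20 to 0.06, with an interquartile range of 0.06 against 0.22 for all genes tested and an SD of 0.046 against 0.294. Among abundant genes, the 72 members with a mean over 200 RPKM had a median of −0.093 and an SD of 0.041, whereas 248 other genes at that level had a median of −0.043 and an SD of 0.199. The fold change was below 0 in all 72 of these members and in 173 of the 248 other genes. All PA libraries lay below all BSA libraries in 55 of 81 members (67.9%, against 22.3% of all genes tested), 34 of the large and 21 of the small subunit, and above them in 0 members (18.2% of all genes tested).

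**Figure D2:**
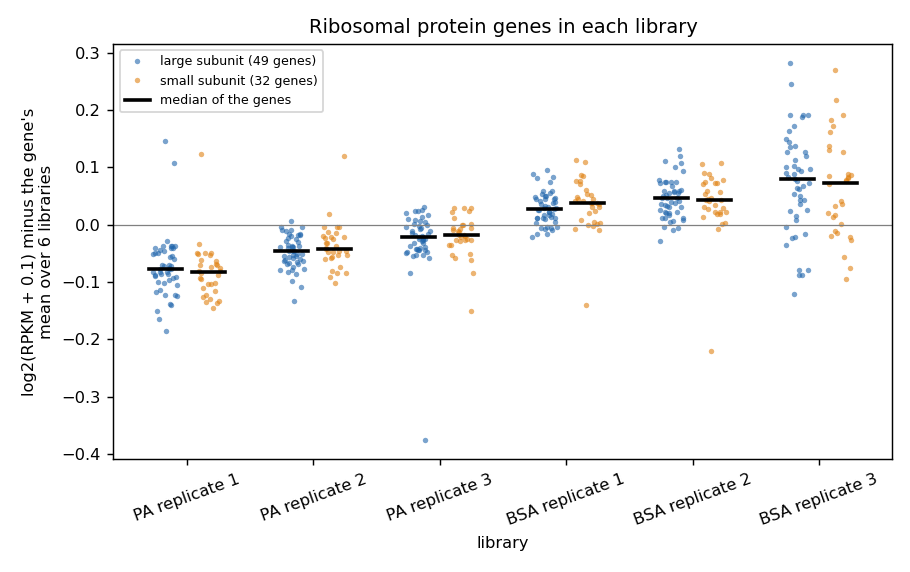
Deviation of each tested ribosomal protein gene from its own mean over the 6 libraries, in log2(RPKM + 0.1), by library, with large subunit genes in blue, small subunit genes in orange and black bars at the medians. The medians of all members are −0.08, −0.045 and −0.02 in PA replicates 1, 2 and 3 and 0.031, 0.043 and 0.075 in BSA replicates 1, 2 and 3, and the points of BSA replicate 3 are the most widely spread.

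The plot of deviations by library shows how the libraries differed among themselves. PA replicate 1 was the lowest of the 6 libraries in 58 of the 81 members, and BSA replicate 3 was the highest of the 6 in 43. The interquartile range of the deviations was 0.115 in BSA replicate 3 and 0.040 to 0.052 in the other libraries, and BSA replicate 3 was also the lowest of its group in 29 members. Deviations were also taken from the mean of each library's own group and set against the GC content of the genes. Their Spearman correlations over the 81 members were 0.35, 0.16 and −0.32 in BSA replicates 1, 2 and 3. In the PA libraries they were −0.10 to 0.12. Such deviations cancel within a group for each gene, so correlations of opposite sign are partly built in. The log2 fold change itself had a correlation of 0.29 with GC content and of 0.09 with gene length. These values describe genes that share the same libraries. Removing the GC trend left a member median of −0.074, against −0.016 for all genes tested (−0.092 and −0.036 before). That trend was fitted over tested genes at large, where fold change and GC content had a correlation of 0.03. It therefore cannot show the part of GC content in the fold changes of members, which was not tested.

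In the limma test with Benjamini-Hochberg adjustment over all genes, 13 of 81 ribosomal protein genes fell at an adjusted p under 0.05 (16%, against 9.52% of all genes tested that were lower). These were 9 of 49 large subunit genes (18.4%) and 4 of 32 small subunit genes (12.5%). None rose (11.2% of all genes tested were higher), and 0 members were higher at an unadjusted p under 0.05 or by limma voom on recovered reads. At an unadjusted p under 0.05, 48 members were lower (59.3%, against 19.6% of all genes tested). But this count was 9 with median-of-ratios scaling, against 1767 of all 11671 genes tested, and 9 with the GC trend removed, against 1999. It was 10 with quantile normalization (2353 of all genes), 2 with the length trend removed (1791) and 1 with scaling on these genes (599). In each of these fits members were called lower less often than genes at large. No member also passed an absolute log2 fold change of 0.4, a limit passed by 2.06% of all genes downward and by 4.22% upward. The number that fell depended on single libraries. Without PA replicates 1, 2 and 3 in turn it was 3, 1 and 2, against 789, 391 and 441 of all genes. Without BSA replicates 1, 2 and 3 in turn it was 10, 4 and 26, against 629, 463 and 1643 of all genes. Members were thus called less often than genes at large without any 1 PA library, and more often without any 1 BSA library. The number was 0 with median-of-ratios scaling (794 of all genes) or with the trend over gene length removed (840). It was 2 with quantile normalization (1282 of all genes) or with the GC trend removed (1029), and 29 with voom (35.8%, against 12.1% of all genes tested).

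**Figure D3:**
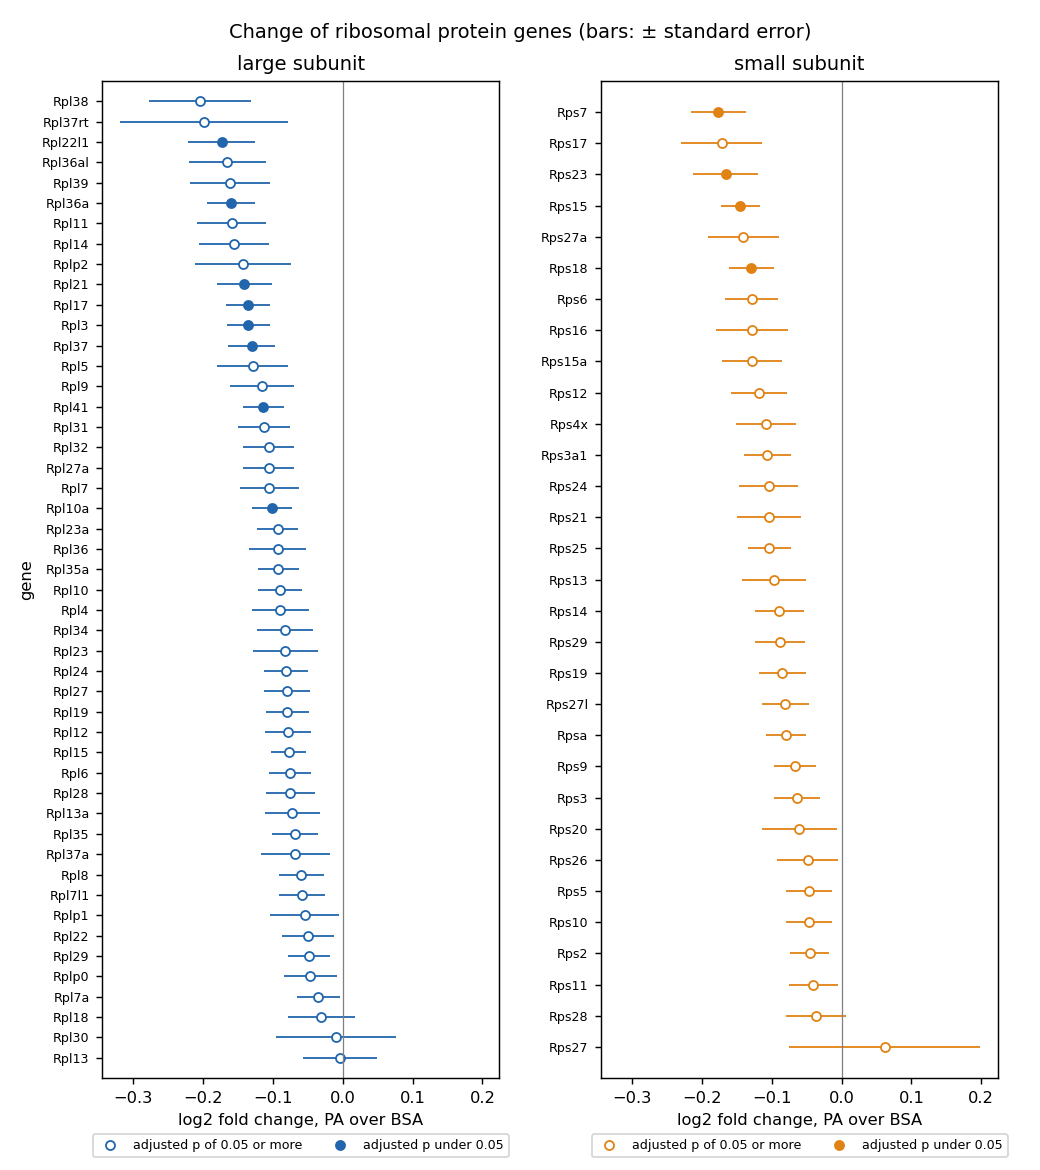
Log2 fold change (PA over BSA) of 79 of the 81 tested ribosomal protein genes with the standard error, large subunit on the left and small subunit on the right, filled where the adjusted p was under 0.05. All points except Rps27 lie below 0 in this fit, whereas 37 of the 81 genes lie below 0 when libraries are scaled on these genes themselves, and the 12 filled points lie between −0.18 and −0.10.

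Among small subunit genes, Rps15, whose protein sits in the head of the subunit near the decoding site, had 1450, 1502 and 1492 RPKM in PA replicates 1, 2 and 3, against 1642, 1623 and 1651 RPKM in BSA replicates 1, 2 and 3. The groups did not overlap and the spread within each was small. PA over BSA gave −0.15 on the log2 scale (standard error 0.028, adjusted p = 0.0098 from limma). Of the 13 calls, Rps15 was the only one kept in each of the 6 fits that left out a library (adjusted p 0.00723 to 0.0436), although its adjusted p ranged from 0.0033 to 0.632 over all 16 alternatives.

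Rps7, whose protein is also known to bind the p53 regulator MDM2, had 659, 674 and 692 RPKM in PA, against 742, 745 and 803 RPKM in BSA. Every PA library was below every BSA library, with BSA replicate 3 the highest. The change in log2 units, −0.18, was the lowest among the 13 (standard error 0.039, adjusted p = 0.0173 from limma). Rps23, a protein of the decoding center, had 1087, 1085 and 1084 RPKM in PA, against 1151, 1195 and 1313 RPKM in BSA. The PA libraries were almost equal and most of the spread lay in the BSA group, and PA over BSA was −0.17 in log2 units (standard error 0.047, adjusted p = 0.0439 from limma). Rps18, which touches the large subunit from the head of the small one, had 1972, 2057 and 2075 RPKM in PA, against 2174, 2239 and 2262 RPKM in BSA, also without overlap, and a log2 fold change of −0.13 (adjusted p = 0.0285 from limma). The call on Rps7 was lost without PA replicate 1 (adjusted p = 0.0573) and without PA replicate 2 (adjusted p = 0.0722), while those on Rps23 and Rps18 were each lost in 4 of the 6 such limma fits, with adjusted p up to 0.128 and 0.092.

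Among large subunit genes, Rpl36a had 552, 560 and 554 RPKM in PA, against 610, 604 and 649 RPKM in BSA. The PA libraries lay close together and below all BSA libraries, and PA over BSA was −0.16 in log2 units (standard error 0.034, adjusted p = 0.0148 from limma). The gene lies at chrX:134585654-134588062 on the plus strand, and 85.5% of its 50-base windows occur in other genes, so its level is uncertain. Its paralog Rpl36al was not past the test, with 340 ± 13.7 RPKM in PA and 382 ± 27.7 RPKM in BSA (log2 fold change −0.17, adjusted p = 0.0702 from limma). The ratio of Rpl36al to Rpl36a was 0.613 ± 0.022 in PA and 0.615 ± 0.027 in BSA.

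Rpl22l1, the paralog that can take the place of Rpl22 in the large subunit, had 128, 127 and 131 RPKM in PA, against 138, 142 and 156 RPKM in BSA. The groups did not overlap, BSA replicate 3 stood highest, and PA over BSA was −0.17 in log2 units (standard error 0.048, adjusted p = 0.0385 from limma). Rpl22 itself had 109 ± 3.43 RPKM in PA and 113 ± 3.52 RPKM in BSA, with overlapping groups (log2 fold change −0.05, adjusted p = 0.368 from limma). The ratio of Rpl22l1 to Rpl22 was 1.19, 1.19 and 1.16 in PA replicates 1, 2 and 3, against 1.22, 1.22 and 1.43 in BSA replicates 1, 2 and 3. The ratios of the groups did not overlap, but 1 BSA library set most of the gap, and the ratio was not tested. For the third pair, Rpl7l1 over Rpl7 was 0.109 ± 0.003 in PA and 0.105 ± 0.005 in BSA.

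Rpl3, a protein at the catalytic center of the large subunit, had 1135, 1139 and 1165 RPKM in PA, against 1227, 1251 and 1300 RPKM in BSA. Its groups were apart, with a log2 fold change of −0.14 (adjusted p = 0.0209 from limma). Rpl41, which bridges the subunits, had 3610, 3499 and 3572 RPKM in PA, against 3796, 3896 and 3864 RPKM in BSA, and a log2 fold change of −0.11 (adjusted p = 0.0291 from limma). This was the most abundant of the 13 ribosomal protein genes that passed the test. Rpl21, Rpl17, which lines the exit tunnel, and Rpl37 also fell, each without overlap between the groups and with log2 fold changes of −0.14, −0.14 and −0.13. Rpl10a, named after its values were seen, fell as well (−0.10). In the 6 limma fits that left out a library, the call on Rpl36a was lost without PA replicate 2 (adjusted p = 0.058) or PA replicate 3 (adjusted p = 0.0589), and the other 8 large subunit calls were lost in 4 or 5 fits, with adjusted p up to 0.165.

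**Figure D4:**
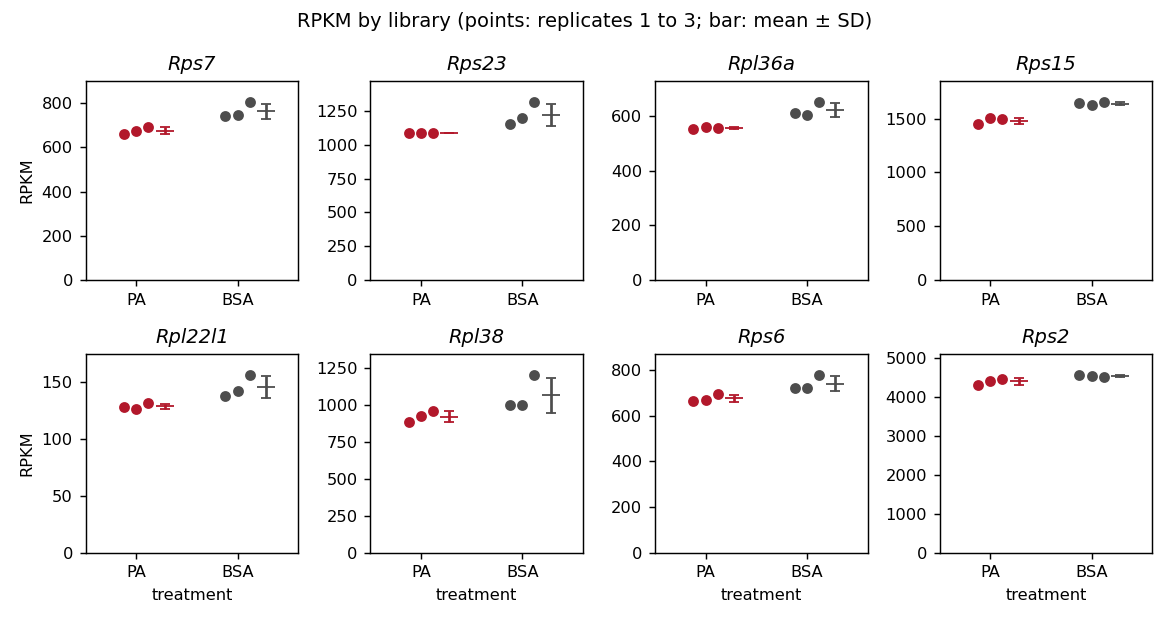
RPKM of 8 ribosomal protein genes in the PA libraries (red, left) and BSA libraries (grey, right), replicates 1 to 3 from left to right in each group, with the mean ± SD beside the points and each axis starting at 0. All PA points lie below all BSA points in each panel, but the gaps are small against the level, as in Rps15 with 1482 ± 27.7 RPKM in PA and 1639 ± 14.0 RPKM in BSA.

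The lowest fold changes did not all pass the test. Rpl38, named after its values were seen, whose loss in mouse embryos disturbs translation of homeobox mRNAs, had 883, 925 and 960 RPKM in PA, against 999, 998 and 1204 RPKM in BSA. Its groups did not overlap, yet BSA replicate 3 stood far above the other BSA libraries, and a log2 fold change of −0.20 had an adjusted p of 0.0864 from limma. Rpl37rt, annotated as a processed pseudogene in GENCODE, had 9.64 ± 1.73 RPKM in PA and 10.96 ± 0.54 RPKM in BSA with overlapping groups (log2 fold change −0.20, adjusted p = 0.274 from limma). Rpl39, at the exit tunnel, had 634 ± 39.7 RPKM in PA and 708 ± 41.1 RPKM in BSA (adjusted p = 0.0813 from limma). Rps15a, with a low 72.9 ± 3.18 RPKM in PA and 79.6 ± 2.89 RPKM in BSA over an implied gene length of 5134 bases, had a log2 fold change of −0.13 (adjusted p = 0.0734 from limma).

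Rps6 encodes the protein that S6 kinases phosphorylate, a common readout of mTORC1. It had 665, 668 and 694 RPKM in PA, against 718, 721 and 777 RPKM in BSA. The groups did not overlap, and the log2 fold change of −0.13 (standard error 0.038) missed the threshold narrowly (adjusted p = 0.0504 from limma). Rpl5 and Rpl11, which bind MDM2 when ribosome assembly fails, had log2 fold changes of −0.13 (adjusted p = 0.115) and −0.16 (adjusted p = 0.0585) from limma, both without overlap between groups. Rpl11 had 984 ± 27.8 RPKM in PA and 1100 ± 74.9 RPKM in BSA, and Rpl5 had 679 ± 8.67 RPKM in PA and 744 ± 56.7 RPKM in BSA.

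The stalk proteins Rplp0, Rplp1 and Rplp2, which recruit elongation factors to the ribosome, were not past the test. Rplp0 had 2227 ± 67.4 RPKM in PA and 2301 ± 81.8 RPKM in BSA, and Rplp1 had 2238 ± 44.3 RPKM in PA and 2328 ± 155 RPKM in BSA, each with overlapping groups and a log2 fold change of −0.05. Rplp2 had 1193 ± 37.3 RPKM in PA and 1322 ± 141 RPKM in BSA, where the groups did not overlap but 1 BSA library at 1485 RPKM carried the spread (log2 fold change −0.14, adjusted p = 0.181 from limma). Rpsa, also known as a precursor of the laminin receptor, had 880 ± 21.6 RPKM in PA and 930 ± 7.30 RPKM in BSA (adjusted p = 0.0889 from limma). Rps12, the fourth most abundant member, had 2423 ± 110 RPKM in PA and 2628 ± 60.4 RPKM in BSA (adjusted p = 0.0732 from limma), and Rps27l, a p53-responsive paralog of Rps27, had 172 ± 5.76 RPKM in PA and 182 ± 3.58 RPKM in BSA (adjusted p = 0.131 from limma).

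Start sequence and fold change were set side by side as a description. Of the 13 genes that fell, 9 had an annotated start region, and 1 of these (Rps18) carried the pyrimidine run at the start base, as did 12 of 52 matched members that were not past the test. The 13 tested members with the run had a median log2 fold change of −0.10 and the 48 without it −0.09.

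Ribosomal proteins whose symbols follow other schemes lay within the same range. Fau, which encodes a ubiquitin-like protein joined to a small subunit protein, had a log2 fold change of −0.06 and Gnb2l1, which encodes the scaffold RACK1, one of −0.04. Of Fau and Gnb2l1, 0 passed the limma test or voom, and 0 had an unadjusted p under 0.05. Rps27a, a member that encodes ubiquitin joined to a small subunit protein, had 912 ± 36.0 RPKM in PA and 1006 ± 63.9 RPKM in BSA (log2 fold change −0.14, adjusted p = 0.0875 from limma).

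Other mRNAs that begin with a TOP motif mostly had log2 fold changes below 0, but few passed the test. Of 17 such genes tested, mostly elongation and initiation factors, 2 fell (9.52% of all genes tested were lower), 0 rose (11.2% of all genes were higher) and 15 did not pass. Their median change was −0.06 in log2 units, against −0.04 for all genes. The fold change was below 0 in 13 of the 17, against 59.1% of all genes tested. All PA libraries lay below all BSA libraries in 9 of them (22.3% of all genes) and above in 1 (18.2% of all genes). At an unadjusted p under 0.05, 7 were lower (19.6% of all genes) and 1 was higher (16.2% of all genes), and voom called 6 lower (12.1% of all genes) and 0 higher (12.7% of all genes). Eef1d, an exchange factor for the elongation factor that delivers transfer RNA, had 173 ± 6.93 RPKM in PA and 191 ± 7.77 RPKM in BSA (log2 fold change −0.15, adjusted p = 0.0453 from limma). Btf3, part of the complex that guards nascent chains, had 387 ± 7.91 RPKM in PA and 414 ± 2.88 RPKM in BSA (−0.10, adjusted p = 0.0413 from limma). In fits that left out a library, Eef1d was lost in each (adjusted p 0.0558 to 0.121) and Btf3 in 5 of 6 (adjusted p up to 0.122).

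Factors that make ribosomes had a median change near 0. Of 99 ribosome biogenesis genes tested, 3 rose and 2 fell (11.2% of all genes tested were higher and 9.52% lower), 94 did not pass, and the median was −0.01 in log2 units. At an unadjusted p under 0.05, 7 were higher and 11 lower (16.2% and 19.6% of all genes). Voom called 3 higher and 4 lower (12.7% and 12.1% of all genes). Polr1c, a subunit shared by RNA polymerases I and III, had 84.3 ± 0.70 RPKM in PA and 93.7 ± 0.57 RPKM in BSA (−0.15, adjusted p = 0.00708 from limma), and Ubtf, which helps RNA polymerase I start on ribosomal DNA, had 47.4 ± 0.32 RPKM in PA and 51.3 ± 0.29 RPKM in BSA (−0.12, adjusted p = 0.0273 from limma). The genes that rose were Utp18 (0.14) and Utp15 (0.13), of the complex that processes the small subunit, and Sbds (0.14), which helps the large subunit mature. Ubtf and Utp15 are named after their values were seen. Polr1c was kept without any single library, whereas each of the other calls was kept in 1 of the 6 fits that left out a library (adjusted p up to 0.155).

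Among 24 tested kinases and regulators of ribosomal protein mRNAs, 4 rose, 0 fell and 20 did not pass, against 11.2% higher and 9.52% lower over all genes tested. At an unadjusted p under 0.05, 8 were higher and 1 was lower (16.2% and 19.6% of all genes). Voom called 6 higher and 1 lower (12.7% and 12.1% of all genes). Myc, the activator of ribosome production, had 104, 108 and 112 RPKM in PA, against 68.1, 64.2 and 67.5 RPKM in BSA. The groups were far apart, and the rise was 0.69 in log2 units (standard error 0.04, adjusted p = 2.79e-05 from limma). Its partner Max rose by 0.28 (adjusted p = 0.00557), and Eif4ebp1, which encodes a translation inhibitor that mTORC1 switches off, had 259 ± 8.31 RPKM in PA and 181 ± 9.69 RPKM in BSA (0.52, adjusted p = 0.000242 from limma). Rps6ka2, the remaining gene that rose and one named after its values were seen, encodes a kinase of the RSK family (0.27, adjusted p = 0.00892 from limma). These 4 genes passed under all 16 alternatives.

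Of 22 genes of ribosome surveillance and quality control, 1 rose, 1 fell and 20 did not pass, against 11.2% higher and 9.52% lower over all genes tested. At an unadjusted p under 0.05, 4 were higher and 4 lower (16.2% and 19.6% of all genes). Voom called 2 higher and 1 lower (12.7% and 12.1% of all genes). Mdm2, which ribosomal proteins bind during nucleolar stress, had 32.5 ± 0.74 RPKM in PA and 28.1 ± 0.64 RPKM in BSA (log2 fold change 0.21, adjusted p = 0.006 from limma). Zak, a kinase that senses collided ribosomes, had 19.6 ± 0.59 RPKM in PA and 21.8 ± 0.60 RPKM in BSA (−0.15, adjusted p = 0.0358 from limma). The call on Mdm2 was kept under all 16 alternatives and that on Zak in none of the 6 fits that left out a library (adjusted p 0.0514 to 0.103).

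**Figure D5:**
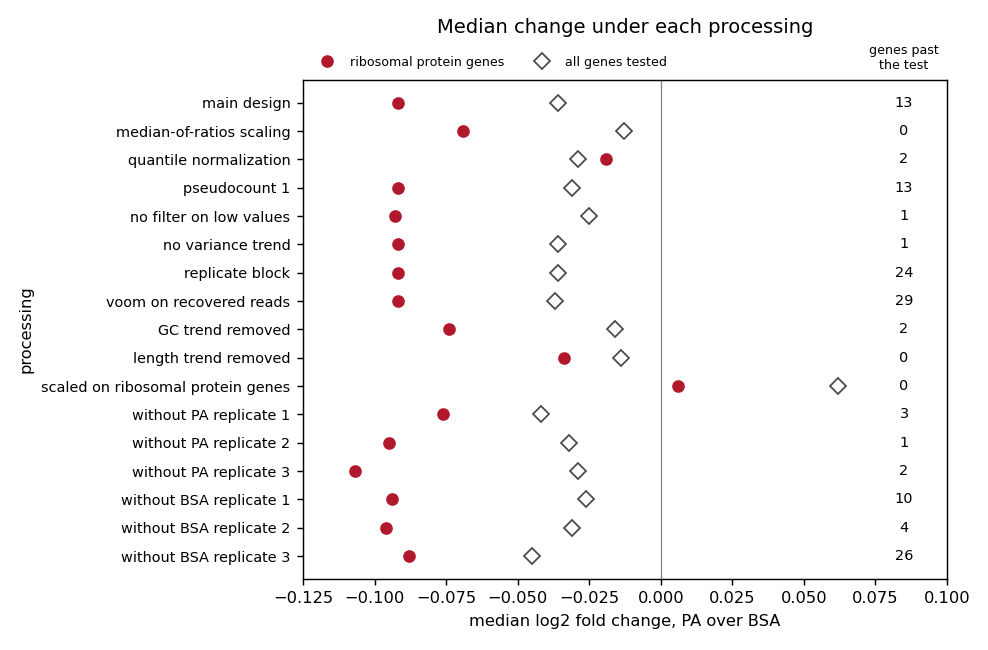
Median log2 fold change (PA over BSA) of the ribosomal protein genes (red circles) and of all genes tested (open diamonds) under each processing, with the number of ribosomal protein genes past the test at the right. The members lie below all genes tested in each row except quantile normalization (−0.019 against −0.029), and their median is above 0 (0.006) only where libraries were scaled on these genes themselves, while the number past the test runs from 0 to 29.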

How the data were processed

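RNA-seq of immortalized mouse PTECs gave 3 PA and 3 BSA libraries, grouped by the sample labels. Columns of the table name a sample by its treatment's initial and its number, both of which the labels give, and 0 sample columns were left unmapped. The authors deposited RPKM values per gene. They called bases with bcl2fastq and mapped reads to mm10 (GRCm38) with TopHat2 2.1.1. The read counter, the annotation and any strand option are not named by the labels or the methods. The table also holds 4 columns of the authors' own edgeR comparison (a fold change, p-values and a ranking), which were not used.

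Genes with a mean of at least 0.5 RPKM (11671) were tested with limma 3.58.1 in R 4.3.3 (lmFit, eBayes with a variance trend) on log2(RPKM + 0.1), comparing the groups with no covariate and with Benjamini-Hochberg adjustment. Genes were called at an adjusted p under 0.05, and a log2 fold change limit of 0.4 was a second rule. The log scale understates changes of low genes. In 100% of the genes with a value above 0 in any library, the RPKM values were integer steps of a single read (tolerance 1e-06). The denominators were solved from these steps, and the recovered reads made up 99.37% to 99.44% of the denominators. No replicate pair agreed within sampling noise. The chi-square per degree of freedom of recovered reads was 1.83 to 3 for pairs of PA libraries. For pairs of BSA libraries it was higher, at 4.65 to 7.77. GC content, gene positions and shared 50-base windows came from GENCODE vM21, and start sequences from RefSeq.

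Named genes were up to 10 members past the test in each direction with the most extreme fold changes, the 5 most and 5 least abundant tested members, paralog pairs, stalk proteins, Rpl5, Rpl11, Rps6, Rpsa, Rps27a, untested members and up to 3 genes of each other list. The members and lists were chosen with earlier results of these data known. A few genes are not reported here. Alternatives were other scalings, pseudocount, filter and variance settings, a replicate block, voom on recovered reads, removal of GC or length trends, and leaving out each library.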

Additional observations from a re-analysis of the deposited data

How the results depend on the processing

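The direction of the shared shift was kept more often than the calls. In the main fit, 13 of the 81 tested members were lower in PA (9 large, 4 small subunit). Over all tested members, the number lower was 0 with median-of-ratios scaling, 2 (2 and 0) with quantile normalization and 2 (2 and 0) with the GC trend removed. It was 0 with the length trend removed, 0 with scaling on ribosomal protein genes, and 29 (18 and 11) with voom. It was 1 (0 and 1) without a variance trend, and 1 (1 and 0) of 82 members without a filter on low values. These are counts and say nothing of which genes they hold. Leaving out single libraries gave 1 to 26 members (large subunit 0 to 15, small subunit 1 to 11). A pseudocount of 1 gave 13. No member was higher under any of the 16 alternatives.

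The median log2 fold change of all members was −0.019 with quantile normalization (large −0.031, small −0.009), −0.034 with the length trend removed (large −0.034, small −0.031) and 0.006 with scaling on these genes (large 0.006, small 0.005), against −0.092 as reported, and −0.107 to −0.076 without single libraries. Members are short genes (median implied length 689 bases against 2813 for all genes tested), and removing the length trend fits these same genes in part. The difference in the share of summed RPKM, −0.91 percentage points, was −1.05 to −0.73 without single libraries.

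Over all genes, 1302 were higher and 1111 lower in PA, against 1476 and 794 with median-of-ratios scaling, 1600 and 1029 with the GC trend removed, 1468 and 840 with the length trend removed, and 1487 and 1415 with voom. Scaling on ribosomal protein genes gave 2099 higher and 247 lower. Without a filter, 739 of 19127 genes were lower. The number lower was 750 without a variance trend, 1282 with quantile normalization and 1130 with a pseudocount of 1. Without single libraries, 819 to 1364 were higher and 391 to 1643 lower.

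Deviations of same-numbered libraries of the groups had correlations of 0.035, −0.036 and 0.094, against −0.103 to 0.074 for differently numbered libraries. With 3 libraries a group, these values cannot show whether the numbers pair the libraries. With a replicate block, 24 members were lower (13 large, 11 small subunit), against 1242 of all genes.

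For the genes named with a test, other lists and the epithelial markers Krt8 and Krt18 included, 631 of the pairs of gene and alternative kept direction and side of the threshold, 194 were no longer past it, 22 passed it newly and 33 changed sign. With quantile normalization the log2 fold change was 0.01 for Rps2, 0.00 for Rpl41, 0.02 for Rpl8, 0.01 for Rpl30, 0.02 for Rpl10, 0.01 for Rps4x, 0.04 for Rpl35 and 0.08 for Gnb2l1. With the length trend removed it was 0.0044 for Rps2, 0.02 for Rplp1, 0.06 for Rpl30, 0.01 for Rpl35 and 0.01 for Gnb2l1. With scaling on ribosomal protein genes it was 0.05 for Rps2, 0.04 for Rpl8, 0.04 for Rplp1, 0.01 for Rpl34, 0.09 for Rpl30, 0.04 for Rpl7l1, 0.01 for Rpl10, 0.05 for Rpl22, 0.02 for Rps27l, 0.05 for Rplp0, 0.02 for Rpsa, 0.03 for Rpl35, 0.06 for Gnb2l1, 0.03 for Fau and 0.0006 for Btf3. For Rpl30 it was 0.01 with median-of-ratios scaling, 0.01 with the GC trend removed, and −0.07 to 0.05 without single libraries (0.05 without PA replicate 2, 0.04 without BSA replicate 2). Rps27 was at −0.03 to 0.21 without single libraries, the lowest being without BSA replicate 2. The cause of these changes was not tested.

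The ribosomal protein genes past the test had 1080 to 37725 recovered reads a library. The part of read number in the calls was not tested.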
